A study of Mus musculus with 15 samples.

Results

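The genes described here encode the guidance cues first known for steering growing nerve fibres, and their receptors: the semaphorins and plexins, the ephrins and Eph receptors, the slits and Robo receptors, and the netrins and Unc5 receptors. They were picked out by gene symbol, and 67 of the 47069 genes in the deposited table carried such a symbol. These families were chosen with earlier results of these data known. There were 36 ligand genes (20 semaphorins, 8 ephrins, 3 slits and 5 netrins) and 31 receptor genes (9 plexins, 14 Eph receptors, 4 Robo receptors and 4 Unc5 receptors).

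The study sequenced messenger RNA of mouse left ventricle (strain C57BL/6), with 15 libraries in 3 groups of 5. Mice of the PBS group had a myocardial infarction and on day 7 an injection of phosphate-buffered saline into the heart muscle. Mice of the rHCI group also had an infarction and, on the same day, an injection of the rHCI hydrogel, a material of recombinant human collagen type I. Hearts of both were taken 2 days after the injection. The Sham group had a sham operation and no treatment, was matched for age and was 10 weeks old. Infarction and injection therefore cannot be told apart in a comparison with sham. Frozen ventricle tissue was ground to powder and RNA was taken from part of the powder, so a library of an infarcted heart mixes scar and muscle in a proportion the labels do not give. The deposited counts summed to 32978702 to 103356830 per library.

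Guidance cues are secreted or membrane-bound proteins that turn cells or their processes toward or away from a source, through receptors that act on small GTPases and the actin skeleton. Semaphorins signal through plexins, the secreted ones usually with a neuropilin as co-receptor. Ephrins and Eph receptors both sit in cell membranes, so that a signal needs contact and can run into either cell. Slits bind Robo receptors, and netrins bind Dcc, neogenin and the Unc5 receptors. In the heart and its vessels these proteins are known from the patterning of arteries and veins, the outflow tract and the cardiac nerves.

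PBS hearts were compared with sham hearts to ask how guidance gene expression differed between an infarcted, saline-injected ventricle and one without infarct. The receptor genes Epha3, Ephb2, Ephb6 and Unc5b and the ligand genes Efna4 and Sema3d were each more than 4-fold higher. The receptor gene Epha4 was the one that fell furthest, to about 0.329 of its sham level. Of the 67 genes, 58 had enough counts to be tested, and of these 37 rose and 10 fell (edgeR quasi-likelihood test, adjusted p under 0.05 after Benjamini-Hochberg adjustment over all 16207 genes tested). Among all genes tested 71.4% passed, 36.5% as higher and 34.9% as lower, so most genes of this tissue differed between these groups. The groups did not overlap for 41 of the 58 guidance genes and for 58.7% of all genes tested. The median log2 fold change was 0.47 over the 58 guidance genes and −0.0086 over all genes tested. A gene can reach the test through its level in 1 group alone, so these counts describe the genes that were measurable and are no test of the families.

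**Figure D1:**
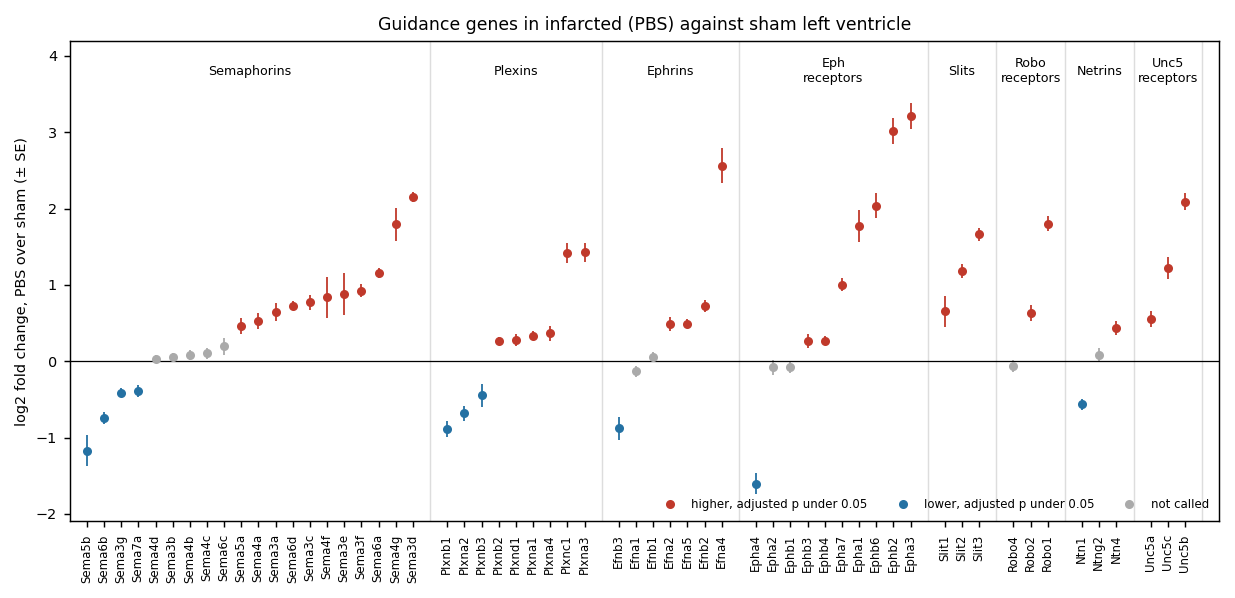
Log2 fold change of PBS over sham (vertical axis; points, with bars of 1 SE) for the 58 guidance genes tested, grouped by family, 5 libraries per group. Red points are higher and blue points lower at an adjusted p under 0.05, and grey points did not pass. Of the 58 genes, 37 were higher and 10 lower, beside 36.5% and 34.9% of all genes tested. When scaled to library totals alone 45 were higher and 7 lower. With that scaling 71.3% of all genes passed in either direction, and their median log2 fold change moved to 0.27.

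Scaling mattered for the smaller differences. TMM factors set the bulk of genes to no change. With library totals instead, the median of all genes moved from −0.0086 to 0.27 in PBS against sham, and 71.3% of all genes passed. How many of all genes were higher or lower with that scaling was not counted. All 37 higher guidance genes then stayed higher and 8 more became higher. Of the 10 lower genes 7 stayed lower, and Sema7a, Sema3g and Plxnb3 no longer passed. The genes whose call changed had log2 fold changes of −0.45 (Plxnb3) to 0.19 (Sema6c) with TMM.

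Cell type markers moved between these groups as well, where 36.5% of all genes tested were higher and 34.9% lower. The 7 cardiomyocyte markers summed to 69480 to 76790 CPM (reads of a gene relative to a library size adjusted by its TMM factor) in sham hearts, 36880 to 52320 in PBS hearts and 38720 to 57990 in rHCI hearts, and 6 of the 7 fell in PBS against sham. All 7 fibroblast markers rose, with sums of 1045 to 1296 CPM in sham, 10320 to 14990 in PBS and 9449 to 14920 in rHCI hearts. Their log2 fold changes in PBS against sham ran from 0.99 to 4.73, with a median of 2.06. In every infarcted heart Col1a1 and Col3a1 had more counts than any other gene of this list, so its sums mostly follow these collagen genes. All 6 macrophage markers rose too, from sums of 93.6 to 113 CPM in sham to 270.8 to 360.6 CPM in PBS hearts. The 7 endothelial markers summed to 836.1 to 938.7 CPM in sham and 920.9 to 1059 CPM in PBS hearts, and 3 of them rose. Each of these lists had 0 genes without counts in any group. In ventricle tissue, fewer cells of a type and less RNA per cell cannot be told apart, and the part of these shifts in the guidance gene differences was not tested.

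Of the remaining lists, 6 of 6 epicardial and mesothelial markers rose in PBS against sham, 6 of 7 lymphocyte markers and 5 of 6 activated fibroblast markers. Among all genes tested 36.5% were higher. The 7 lymphocyte markers had low levels, with sums of 2.17 to 5.27 CPM in sham and 6.41 to 11.5 CPM in PBS hearts. Schwann cell markers, which are of interest because cardiac nerves carry guidance receptors, fell for 3 of 6 genes and summed to 15.7 to 22.3 CPM in sham, 12.9 to 15.4 in PBS and 12.6 to 18.6 in rHCI hearts. Of the 6 neuron markers 3 could be tested and 2 rose, and their sum was 4.59 to 7.94 CPM in sham and 8.41 to 9.75 CPM in PBS hearts. Pericyte and smooth muscle markers split, with 2 of 6 higher and 3 lower, and so did lymphatic endothelial markers, with 2 of 4 higher and 1 lower.

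The 250 bases before the transcription start are shown for the 2 receptor and the 2 ligand genes with the largest rises and for the receptor gene with the largest fall. They are the RefSeq promoter entries on build GRCm38.p6, written 5′ to 3′ on the strand of the gene. Capitals mark matches to 6 short motifs, searched on both strands: AP-1 (TGANTCA), TEAD (GGAATG), the HIF core (ACGTG), the SMAD box (CAGAC), E2F (TTTGGCGC) and the NF-kB consensus.
Epha3, chr16:63864176-63864425, minus strand: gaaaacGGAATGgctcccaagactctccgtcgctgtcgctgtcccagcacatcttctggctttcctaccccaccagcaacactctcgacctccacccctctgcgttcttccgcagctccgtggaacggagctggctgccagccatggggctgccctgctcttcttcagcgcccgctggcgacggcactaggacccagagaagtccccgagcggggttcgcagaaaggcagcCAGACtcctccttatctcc
Ephb2, chr4:136836013-136836262, minus strand: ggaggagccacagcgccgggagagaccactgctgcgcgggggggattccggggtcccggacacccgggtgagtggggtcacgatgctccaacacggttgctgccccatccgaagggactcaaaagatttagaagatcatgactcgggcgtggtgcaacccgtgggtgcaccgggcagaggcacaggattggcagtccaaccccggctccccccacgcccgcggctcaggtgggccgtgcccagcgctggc
Efna4, chr3:89338029-89338278, minus strand: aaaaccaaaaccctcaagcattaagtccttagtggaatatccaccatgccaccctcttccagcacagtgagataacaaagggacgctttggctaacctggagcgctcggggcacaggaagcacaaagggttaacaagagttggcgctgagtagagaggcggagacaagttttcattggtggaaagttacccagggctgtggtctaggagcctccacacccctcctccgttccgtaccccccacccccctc
Sema3d, chr5:12382916-12383165, plus strand: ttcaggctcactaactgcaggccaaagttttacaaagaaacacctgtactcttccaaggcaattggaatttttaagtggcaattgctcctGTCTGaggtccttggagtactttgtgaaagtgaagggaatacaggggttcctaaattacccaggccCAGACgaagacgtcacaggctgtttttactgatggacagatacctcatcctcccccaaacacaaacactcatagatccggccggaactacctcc
Epha4, chr1:77515089-77515338, minus strand: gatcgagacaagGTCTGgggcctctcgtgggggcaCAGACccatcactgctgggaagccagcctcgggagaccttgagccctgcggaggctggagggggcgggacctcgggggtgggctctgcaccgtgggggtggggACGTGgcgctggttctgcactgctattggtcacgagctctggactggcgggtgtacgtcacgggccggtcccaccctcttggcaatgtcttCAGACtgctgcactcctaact

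The Epha3 window held a TEAD match near its far end and a SMAD box match near the start site, and the Epha4 window held 3 SMAD box matches and 1 HIF core match. Sema3d had 2 SMAD box matches, and no match was found in the windows of Ephb2 and Efna4. Of the 67 guidance genes 58 had a promoter entry, with 74 entries in all. Of these, 51.4% held a SMAD box against 42.2% of all 32817 promoters of the same length. The SMAD box stood in 8 of the 9 entries of genes that fell, in 17 of the 40 of genes that rose and in 10 of the 16 of genes that did not pass. The other shares were 10.8% against 12.6% for TEAD, 16.2% against 16.6% for the HIF core and 4.05% against 6.75% for AP-1, while E2F and NF-kB matches were found in 0 of the guidance gene entries and in 0.417% and 0.357% of all. None of the motifs contains another. The median GC content was 64.0% in guidance gene promoters and 52.4% in all. A match describes the letters in a window and shows no binding, and a missing match says only that these letters are not in it.

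Among the 20 semaphorin genes, which encode the ligands of plexins, all could be tested, and 11 rose and 4 fell. The counts of this and the following families stand beside 36.5% higher and 34.9% lower among all genes tested. Class 3 semaphorins are secreted, and of their 7 genes 5 rose and Sema3g fell (log2 fold change −0.41 ± 0.07). In each family, the genes of largest change shown with every library's value were chosen among those without overlap of PBS and sham hearts. Their separation in that comparison is thus set by the choice. Values below follow the order Sham 16, Sham 17, Sham 18, Sham 19 and Sham 20, then PBS 2, PBS 6, PBS 9, PBS 12 and PBS 14, then rHCI 1, rHCI 3, rHCI 7, rHCI 11 and rHCI 13. Sema3d, a secreted semaphorin needed for the patterning of pulmonary veins (ENSMUSG00000040254; GRCm38 chromosome 5, 12383385 to 12588948), stood at 6.46, 7.15, 6.53, 7.22 and 6.9 CPM in the sham hearts. It was at 29.7, 27.7, 29.8, 34 and 30.9 CPM in the PBS hearts and at 26.9, 31.7, 29.7, 23.8 and 22.3 CPM in the rHCI hearts. All infarcted hearts lay above all sham hearts, and the log2 fold change of PBS over sham was 2.15 ± 0.06 (SE; adjusted p = 1.05e-10). Sema3f, a ligand that acts through neuropilin 2, rose from 18.6 ± 1.58 to 35.4 ± 4.47 CPM (SD, n = 5 per group), and Sema3c, which acts in the outflow tract, from 22.8 ± 3.25 to 38.9 ± 4.29 CPM. Sema3a (0.64) rose at levels below 5 CPM. Sema3e (0.88) rose at levels below 1 CPM in every library, with overlapping sham and PBS hearts. Sema3b was at 43.5 ± 2.72 CPM in sham and 45.3 ± 2.45 CPM in PBS hearts and did not pass.

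The membrane-bound semaphorins moved in both directions. Sema6a, a transmembrane ligand of plexins A2 and A4 (ENSMUSG00000019647), held 11, 12, 11.3, 12.6 and 12.9 CPM in sham, 26.7, 27.7, 25, 29.4 and 25.2 CPM in PBS and 29.3, 29.2, 24, 26.8 and 26.7 CPM in rHCI hearts. Infarcted and sham hearts did not overlap, at a log2 fold change of 1.16 ± 0.06 (adjusted p = 4.53e-09). Sema6d rose by 0.73 ± 0.06 and Sema6b fell by 0.75 on the log2 scale, while Sema6c (0.19) did not pass. Sema5b, a transmembrane semaphorin with thrombospondin repeats (ENSMUSG00000052133; chromosome 16, 35541145 to 35664732), was at 1.46, 1.25, 1.2, 2.28 and 1.46 CPM in sham hearts, 0.868, 0.748, 0.615, 0.548 and 0.65 CPM in PBS hearts and 0.783, 0.644, 0.682, 0.927 and 0.885 CPM in rHCI hearts. Every infarcted heart was below every sham heart, although Sham 19 stood well above the other sham hearts. The log2 fold change was −1.17 ± 0.20 (adjusted p = 0.000158), and the related Sema5a rose by 0.46 ± 0.10.

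Sema7a had the highest level per transcript length of the semaphorins in sham hearts, at 15.3 ± 1.92 RPKM (CPM divided by the exon length in kilobases). It encodes a lipid-anchored semaphorin that binds plexin C1 and integrin beta 1 (ENSMUSG00000038264; chromosome 9, 57940112 to 57962865). Its CPM values were 59.1, 43.3, 49.6, 54.1 and 46 in sham, 36.6, 39, 34.9, 43.1 and 38.4 in PBS and 37.8, 43.2, 39.4, 41.2 and 36.8 in rHCI hearts. The fall of 0.39 on the log2 scale (SE 0.08, adjusted p = 0.000686) was a small one, and with scaling by the library total it was −0.12 and did not pass. Of the 6 class 4 semaphorins, 3 rose and 0 fell. Sema4a (0.53) was the most abundant of those 3, and Sema4f (0.84) and Sema4g (1.79) stayed below 1 CPM. Sema4b, Sema4c and Sema4d had log2 fold changes of 0.08, 0.10 and 0.02 and did not pass, whereas with scaling by the library total all 3 passed as higher. Annotated exons on the opposite strand overlap Sema4c, and Sema4a holds a microRNA gene, so their counts are less certain.

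All 9 plexin genes, the semaphorin receptors, were tested, and 6 rose and 3 fell. Plxna3, a receptor that pairs with neuropilins (ENSMUSG00000031398; chromosome X, 74329066 to 74344689), was at 1.84, 1.94, 1.73, 1.37 and 1.4 CPM in sham, 4.15, 4.79, 4.78, 4.77 and 3.7 CPM in PBS and 3.66, 4.35, 3.96, 3.54 and 2.82 CPM in rHCI hearts. Plxnc1, the receptor of Sema7a (ENSMUSG00000074785; chromosome 10, 94790866 to 94944835), was at 6.12, 7.1, 6.95, 5.87 and 5.04 CPM in sham, 16.5, 16.5, 18.3, 19.8 and 12 CPM in PBS and 14.5, 16.6, 14.5, 12.9 and 11.5 CPM in rHCI hearts. For both, all infarcted hearts were above all sham hearts, with log2 fold changes of 1.43 ± 0.13 and 1.42 ± 0.13 (adjusted p = 3.98e-07 and 5.82e-07). Plxnc1 shares exon sequence with a predicted gene on the same strand, so its counts are less certain. The ligand gene Sema7a was thus lower with TMM scaling in the hearts in which its receptor gene was higher.

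Plxnb1, the receptor of Sema4d (ENSMUSG00000053646; chromosome 9, 109095389 to 109119917), went the other way. Its levels were 84.3, 85.6, 66, 69.1 and 72.9 CPM in sham, 41.8, 45.4, 38.1, 32.1 and 46.9 CPM in PBS and 42.2, 30.1, 36.1, 49.7 and 60.1 CPM in rHCI hearts. All infarcted hearts were below all sham hearts, and the log2 fold change was −0.89 ± 0.10 (adjusted p = 5.08e-06). Plxna2, a receptor of secreted and class 6 semaphorins, fell by 0.68 on the log2 scale, from 100.3 ± 16.6 to 62.5 ± 6.07 CPM. Plxnb3 (−0.45) also fell, with overlapping groups.

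Plxnb2, a receptor of class 4 semaphorins and the plexin with the highest level per length (25 ± 1.77 RPKM in sham; ENSMUSG00000036606; chromosome 15, 89155549 to 89180788), stood at 199.9, 176, 209.6, 182 and 197 CPM in sham, 239.9, 225, 223, 239 and 233 CPM in PBS and 222, 229, 227, 218 and 219 CPM in rHCI hearts. The rise was 0.26 ± 0.05 on the log2 scale (adjusted p = 0.000508) and did not exceed a 1.2-fold minimum when that was tested. Plxnd1, the endothelial receptor of Sema3e, rose by 0.28 ± 0.08, Plxna1 by 0.34 ± 0.06 and Plxna4 by 0.37 ± 0.10. The predicted antisense exons at Plxna1, Plxna4 and Plxnb1 make these counts less certain, since the strand setting of the counting is not given.

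**Figure D2:**
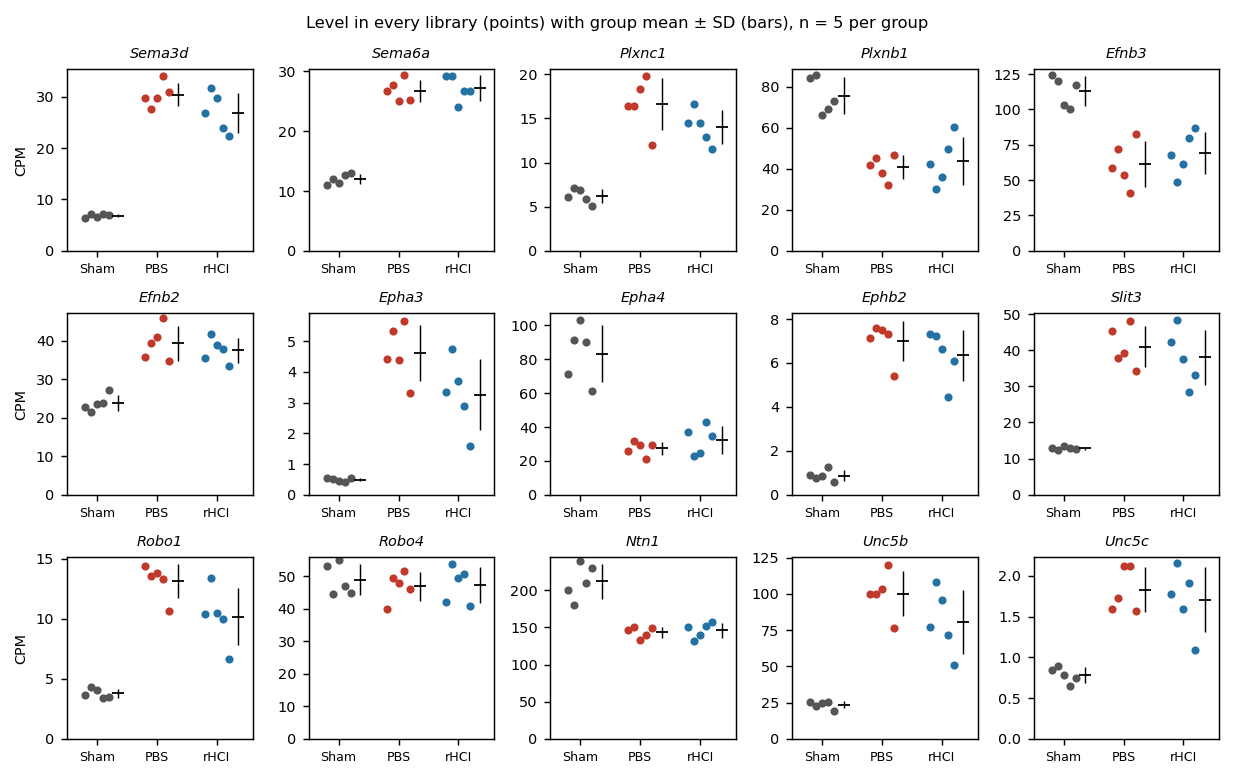
Level of 15 guidance genes in CPM (vertical axes, from 0) in each of the 15 libraries (points) by group, with the group mean ± SD (bars, n = 5). The points of Epha3, Ephb2, Sema3d and Unc5b in PBS and rHCI hearts lie above all sham points, those of Plxnb1, Efnb3, Epha4 and Ntn1 lie below, and those of Robo4 overlap between all groups.

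Of the 8 ephrin genes, which encode the membrane-bound ligands of Eph receptors, 7 were tested, and 4 rose and 1 fell. Efna4, a lipid-anchored A-class ephrin (ENSMUSG00000028040; chromosome 3, 89333390 to 89338028), was at 0.122, 0.306, 0.114, 0.196 and 0.147 CPM in sham hearts, 0.895, 1.04, 1.09, 1.02 and 1.03 CPM in PBS hearts and 0.763, 0.792, 0.716, 0.896 and 0.461 CPM in rHCI hearts. Even the highest sham heart was below the lowest infarcted heart, and the log2 fold change was 2.56 ± 0.23 (adjusted p = 4.73e-07), at levels of about 1 CPM. An annotated exon on the opposite strand overlaps it. Efna2 (0.49 ± 0.10) and Efna5 (0.49 ± 0.05) rose by less. Efna1, which lies on chromosome 3 beside Efna3 and Efna4 (gaps of 32.8 and 10.4 kb along that row), was at 27 ± 1.67 CPM in sham and 24.7 ± 2.43 CPM in PBS hearts and did not pass.

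Among the transmembrane B-class ephrins the 3 genes behaved differently. Efnb3 had the highest level per length of the ephrins (35.6 ± 3.32 RPKM in sham; ENSMUSG00000003934; chromosome 11, 69554092 to 69560205), with 124, 120.2, 103, 100.5 and 118 CPM in sham, 58.9, 72.1, 53.5, 41 and 82.3 CPM in PBS and 68.1, 48.7, 61.7, 79.5 and 86.6 CPM in rHCI hearts. All infarcted hearts were below all sham hearts, with PBS 12 lowest and rHCI 13 highest among them. The log2 fold change was −0.88 ± 0.15 (adjusted p = 0.000129). Efnb2, a marker of arterial endothelium and the ligand of Ephb4 (ENSMUSG00000001300; chromosome 8, 8617434 to 8661242), had 22.8, 21.6, 23.5, 23.8 and 27.2 CPM in sham, 35.8, 39.3, 40.9, 45.9 and 34.6 CPM in PBS and 35.5, 41.8, 38.9, 37.9 and 33.4 CPM in rHCI hearts. All infarcted hearts were above all sham hearts, with a log2 fold change of 0.72 ± 0.08 (adjusted p = 2.67e-06). Efnb1 (0.06 ± 0.07) did not pass with TMM scaling and passed as higher with the library total.

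The Eph receptor genes held both the largest rises and the largest fall of all guidance genes. Of 14 genes 10 were tested, and 7 rose and 1 fell. Epha3, an A-class receptor tyrosine kinase known from mesenchyme of the developing atrioventricular cushions (ENSMUSG00000052504; chromosome 16, 63543534 to 63864175), stood at 0.555, 0.51, 0.457, 0.412 and 0.531 CPM in sham hearts, 4.42, 5.34, 4.37, 5.65 and 3.3 CPM in PBS hearts and 3.35, 4.75, 3.69, 2.88 and 1.6 CPM in rHCI hearts. The lowest infarcted heart, rHCI 13, was still above every sham heart, and the log2 fold change of PBS over sham was 3.21 ± 0.17 (adjusted p = 3.2e-09). Ephb2, a B-class receptor (ENSMUSG00000028664; chromosome 4, 136647539 to 136835988), had 0.907, 0.776, 0.837, 1.26 and 0.599 CPM in sham, 7.13, 7.6, 7.5, 7.33 and 5.41 CPM in PBS and 7.3, 7.24, 6.64, 4.46 and 6.07 CPM in rHCI hearts. PBS 14 and rHCI 11 were the lowest infarcted hearts and remained above all sham hearts, at a log2 fold change of 3.02 ± 0.17 (adjusted p = 6.74e-09).

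Ephb6, a receptor without kinase activity (ENSMUSG00000029869; chromosome 6, 41605482 to 41620509), was at 1.69, 1.96, 1.2, 1.88 and 1.32 CPM in sham, 7.43, 6.58, 6.71, 7.43 and 4.81 CPM in PBS and 6.08, 6.98, 6.42, 4.26 and 4.63 CPM in rHCI hearts. It rose by 2.04 ± 0.16 on the log2 scale without overlap (adjusted p = 1.42e-07). Epha7 rose from 8.9 ± 0.404 to 17.8 ± 2.24 CPM. Epha1 (1.78 ± 0.21) rose as well, at about 1 CPM and with an overlapping exon of Zyx on the other strand, and so did Ephb3, by 0.27 ± 0.10. Epha2 (−0.08) and Ephb1 (−0.08) did not pass.

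Epha4, the receptor that binds ephrins of both classes (ENSMUSG00000026235; chromosome 1, 77367185 to 77515088), was named after its values were seen. It was at 71.4, 91.1, 103, 90.2 and 61.2 CPM in sham, 25.7, 31.6, 29.3, 21.3 and 29.3 CPM in PBS and 36.9, 23, 24.6, 42.7 and 35 CPM in rHCI hearts. The lowest sham heart was above the highest infarcted heart, and the log2 fold change was −1.60 ± 0.14 (adjusted p = 3.67e-07). Ephb4, the receptor of venous endothelium (ENSMUSG00000029710; chromosome 5, 137350109 to 137378669), had the highest level per length of the family in sham, at 15.7 ± 1.59 RPKM. Its levels were 80.9, 64.6, 79.8, 72.4 and 66.8 CPM in sham, 84.9, 91.4, 84.7, 88.5 and 90.7 CPM in PBS and 83.3, 93.9, 89.3, 91.2 and 82.9 CPM in rHCI hearts. The rise of 0.27 ± 0.06 (adjusted p = 0.00151) kept the groups apart but did not exceed a 1.2-fold minimum.

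The summed level of all Eph receptor genes differed between groups by less than its SD in sham hearts, while the shares of single genes in it differed. The sum per transcript length was 34.5 ± 3.38 RPKM in sham, 34.5 ± 0.825 in PBS and 33.9 ± 1.47 in rHCI hearts (SD, n = 5). Epha4 gave 29.9% ± 3.96 of that sum in sham hearts, 9.86% ± 1.43 in PBS hearts and 11.9% ± 3.21 in rHCI hearts. Ephb4 gave 45.7% ± 3.66, 55.0% ± 1.70 and 56.0% ± 1.12. The ephrin sum was 67.9 ± 3.32 RPKM in sham, 55.6 ± 5.24 in PBS and 56.5 ± 4.09 in rHCI hearts, and the share of Efnb3 in it was 52.3% ± 2.86, 34.4% ± 6.24 and 38.0% ± 5.83. These sums and shares are descriptions and were not tested.

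**Figure D3:**
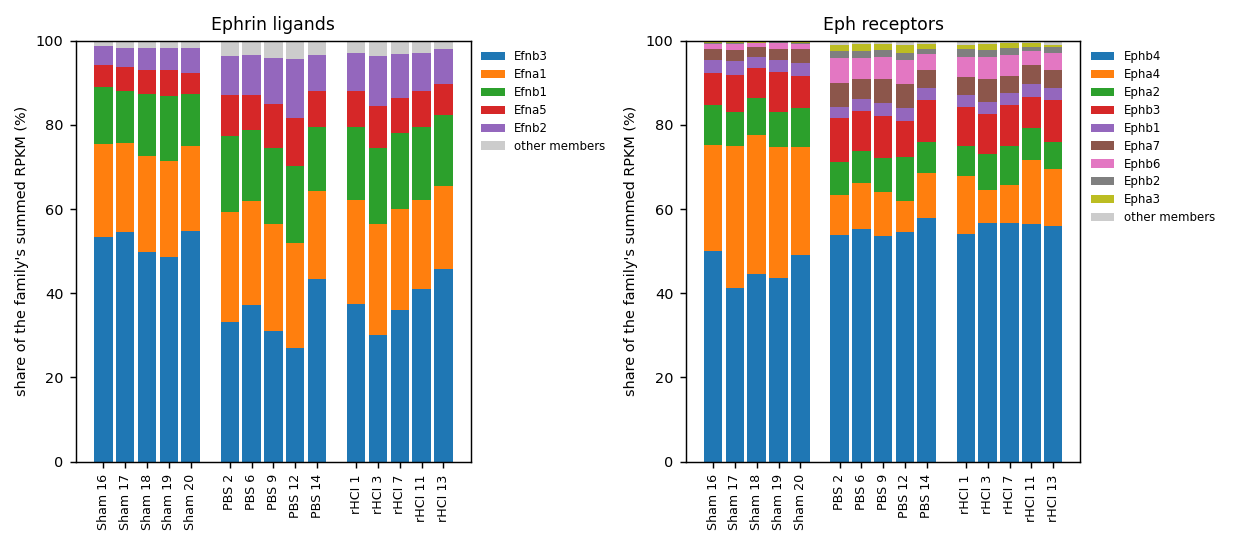
Share of each gene in the summed RPKM of the ephrin genes (left) and Eph receptor genes (right) in each library (stacked bars, in percent, from 0). The orange Epha4 band spans 25.4% to 33.6% in the 5 sham hearts and 7.54% to 15.2% in the 10 infarcted hearts, and the blue Efnb3 band spans 48.6% to 54.9% in sham and 27.0% to 45.7% in infarcted hearts.

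All 3 slit genes rose. They encode large secreted ligands of the Robo receptors. Slit3 was the slit with the highest level per length (2.13 ± 0.0632 RPKM in sham; ENSMUSG00000056427; chromosome 11, 35121224 to 35708507), and its levels were 13.1, 12.5, 13.5, 12.8 and 12.7 CPM in sham, 45.4, 37.7, 39.2, 48.2 and 34.3 CPM in PBS and 42.2, 48.4, 37.6, 28.6 and 33.2 CPM in rHCI hearts. Slit2 (ENSMUSG00000031558; chromosome 5, 47983138 to 48307733) was at 13.9, 13.4, 14.7, 10.9 and 12.6 CPM in sham, 30.7, 28.9, 32.5, 32.8 and 24.2 CPM in PBS and 28.3, 32.4, 29.8, 23.8 and 21.3 CPM in rHCI hearts. Neither gene had an infarcted heart within the sham range. The log2 fold changes were 1.67 ± 0.09 and 1.18 ± 0.09 (adjusted p = 3.21e-09 and 1.7e-07), and the low Slit1 rose from 0.27 ± 0.0293 to 0.416 ± 0.1 CPM. The slit sum went from 2.69 ± 0.109 RPKM in sham to 7.99 ± 1.05 in PBS and 7.39 ± 1.43 in rHCI hearts.

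Of the 4 Robo receptor genes 3 were tested, and 2 rose. Robo1, the broadly expressed slit receptor (ENSMUSG00000022883; chromosome 16, 72308306 to 73046095), stood at 3.64, 4.33, 4.03, 3.38 and 3.47 CPM in sham, 14.4, 13.5, 13.8, 13.3 and 10.7 CPM in PBS and 10.4, 13.4, 10.5, 9.96 and 6.62 CPM in rHCI hearts. All infarcted hearts exceeded all sham hearts, rHCI 13 by the least, and the log2 fold change was 1.80 ± 0.10 (adjusted p = 5.29e-09). Robo2 (ENSMUSG00000052516; chromosome 16, 73891839 to 74411825) had 3.22, 2.76, 2.74, 2.28 and 2.53 CPM in sham, 3.96, 4.02, 4.37, 4.62 and 3.98 CPM in PBS and 3.11, 5.06, 3.25, 4.42 and 2.27 CPM in rHCI hearts. The PBS hearts were all above the sham hearts (0.63 ± 0.10, adjusted p = 9.76e-05), whereas the rHCI hearts overlapped them.

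Robo4, the Robo receptor of endothelial cells (ENSMUSG00000032125; chromosome 9, 37401897 to 37415115), had the highest level per length of its family (9.24 ± 0.92 RPKM in sham). It was at 53.3, 44.7, 55.1, 47 and 44.9 CPM in sham, 39.8, 49.4, 47.8, 51.5 and 46 CPM in PBS and 42.2, 53.6, 49.6, 50.7 and 41 CPM in rHCI hearts. The groups overlapped, and the log2 fold change was −0.06 ± 0.07 with a 95% interval of −0.22 to 0.10 (adjusted p = 0.469), but 0.21 (adjusted p = 0.0197) with scaling by the library total. Robo3 lies 553 bases from Robo4 and had too few counts for the test.

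The netrin genes, which encode laminin-related secreted or membrane-anchored cues, and the Unc5 receptor genes differed in direction. Of 5 netrin genes 3 were tested, and 1 rose and 1 fell. Ntn1, the netrin with the highest level per length (33.8 ± 3.73 RPKM in sham; ENSMUSG00000020902; chromosome 11, 68209364 to 68400823), was at 201, 180.2, 239, 210.4 and 229.7 CPM in sham, 146, 151, 133, 140.2 and 149 CPM in PBS and 151, 132, 139.8, 152 and 157 CPM in rHCI hearts. All infarcted hearts were below all sham hearts, with a log2 fold change of −0.56 ± 0.07 (adjusted p = 9.41e-06). Ntn4, a netrin of basement membranes (ENSMUSG00000020019; chromosome 10, 93640681 to 93747207), had 18.3, 20.2, 19.1, 17.5 and 15.6 CPM in sham, 23.8, 23.3, 27.5, 27.4 and 20.8 CPM in PBS and 23.6, 27.4, 23.8, 21.6 and 18.1 CPM in rHCI hearts. It rose by 0.44 ± 0.09 (adjusted p = 0.000554), with PBS hearts all above sham hearts and rHCI 13 within the sham range. Ntng2, a lipid-anchored netrin G (0.09 ± 0.09), did not pass, and a gene on the same strand shares exon sequence with it.

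Of the 4 Unc5 receptor genes 3 were tested and all 3 rose. Unc5b, an endothelial netrin receptor (ENSMUSG00000020099; chromosome 10, 60762593 to 60831581), carried most of the family's level (3.75 ± 0.41 RPKM in sham). Its values were 25.5, 22.7, 24.3, 25.5 and 19.4 CPM in sham, 99.7, 100.01, 103, 120.2 and 76.7 CPM in PBS and 77.2, 108, 95.4, 71.3 and 51.1 CPM in rHCI hearts. The infarcted hearts were all above the sham hearts and spread widely, from rHCI 13 to PBS 12, and the log2 fold change was 2.09 ± 0.11 (adjusted p = 3.99e-09).

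Unc5c (ENSMUSG00000059921; chromosome 3, 141465216 to 141834924) was at 0.839, 0.898, 0.78, 0.648 and 0.745 CPM in sham, 1.6, 1.74, 2.13, 2.12 and 1.57 CPM in PBS and 1.78, 2.15, 1.6, 1.92 and 1.09 CPM in rHCI hearts. Unc5a (ENSMUSG00000025876; chromosome 13, 54949411 to 55006018) was at 2.45, 2.08, 2.59, 2.55 and 2.07 CPM in sham, 3.66, 3.72, 3.22, 3.03 and 3.63 CPM in PBS and 3.13, 2.96, 3.23, 3.19 and 3.01 CPM in rHCI hearts. Both were without overlap between infarcted and sham hearts, at log2 fold changes of 1.23 ± 0.14 and 0.56 ± 0.11 (adjusted p = 5.46e-06 and 0.000399), and both overlap antisense exons. The Unc5 sum went from 4.36 ± 0.459 RPKM in sham to 16.9 ± 2.44 in PBS and 13.7 ± 3.53 in rHCI hearts, and the netrin sum went from 40.4 ± 3.42 to 31.4 ± 0.702 and 31.4 ± 0.907.

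The 9 guidance genes that could not be tested in this comparison were Efna3, Epha5, Epha6, Epha8, Epha10, Ntn5, Ntng1, Robo3 and Unc5d. Their highest group mean ran from 0.00233 CPM for Epha10 to 0.249 CPM for Efna3. Without the filter on low counts all 67 genes were tested and 49 passed, the 47 above among them, as did 43% of the 28234 genes tested in that setting. By role, with the filter, 19 of 33 ligand genes tested rose and 6 fell, and 18 of 25 receptor genes tested rose and 4 fell. Among all 16207 genes tested with the filter, 36.5% were higher and 34.9% lower.

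The partners of these families were read in the same comparison. They are a list of 91 co-receptors, other ligands, proteases and intracellular effectors, put together by function with earlier results of these data known. Of 85 tested, 49 rose and 15 fell, beside 36.5% and 34.9% of all genes tested (71.4% together), with a median log2 fold change of 0.33. With scaling by the library total 68 rose and 7 fell, while 71.3% of all genes passed in either direction. Of the 21 co-receptors tested 13 rose and 3 fell, and of the 48 effectors 30 rose and 10 fell. Cd72, the Sema4d receptor of immune cells, rose from 1.22 ± 0.365 to 16.5 ± 2.62 CPM (3.77 ± 0.19, adjusted p = 2.71e-09), and Sdc1, a heparan sulfate proteoglycan of the cell surface, from 7.41 ± 0.534 to 42.5 ± 7.28 CPM (2.52 ± 0.12). Met, the hepatocyte growth factor receptor that associates with B-class plexins, rose by 2.27 ± 0.18.

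Among effectors and proteases, Ngef, which acts below Eph receptors, rose by 3.36 ± 0.23, and the GTPase-activated kinase gene Pak3 by 3.23 ± 0.17. Mmp14, a membrane-bound metalloprotease, rose from 23.5 ± 2.47 to 199 ± 35.8 CPM (3.09 ± 0.13). The collapsin response mediator gene Dpysl3 (1.22) and the actin regulator Limk1 (0.62) also rose, while Ablim1 (−0.44), an actin-binding protein, fell. These 3 were picked after their values were seen.

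The neuropilins, which bind class 3 semaphorins, and the netrin receptors Neo1 and Dcc belong to none of the families counted here. Nrp1, the neuropilin of Sema3a and of vascular endothelial growth factor, was at 163 to 221 CPM in sham and 204 to 234 CPM in PBS hearts, overlapping, at a log2 fold change of 0.14 ± 0.08 (adjusted p = 0.144), and passed as higher (0.41) with scaling by the library total. Nrp2, the neuropilin of Sema3f, was at 50.2 to 67.3 CPM in sham and 101 to 122 CPM in PBS hearts and rose (0.80 ± 0.08, adjusted p = 1.34e-06). Neo1, the neogenin receptor of netrins, was at 126 to 149 CPM in sham and 119 to 121 CPM in PBS hearts (−0.18 ± 0.05, adjusted p = 0.00341), and at 0.096 without passing when the library total was used. Dcc, the classical attractive netrin receptor, had 1 count over the 5 sham libraries and 1 over the 5 PBS libraries, and was not tested.

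rHCI hearts were compared with PBS hearts to ask whether the hydrogel went with other guidance gene levels than saline. Of 60 guidance genes tested, 0 passed in either direction with edgeR, as did 0% of all 16383 genes tested. DESeq2 called 0 of the guidance genes and 6 of all genes. At an unadjusted p under 0.05 there were 5 guidance genes, Efna2, Efna4, Efna5, Robo1 and Plxna3, against 3.53% of all genes. All 5 were lower in rHCI hearts. In the same comparison all 7 fibroblast, all 6 activated fibroblast and all 6 macrophage markers had log2 fold changes below 0 (medians −0.21, −0.28 and −0.17), all 7 cardiomyocyte markers had values above 0 (median 0.19), and 0 of them passed. The part of these markers in the guidance gene values was not tested. Log2 fold changes ran from −0.50 (Epha3) to 0.25 (Epha4), with a median of −0.047, 24 above 0 and 36 below. The 95% intervals of single genes reached from −1.05 to 0.98 at most. Those of Epha3 and Robo3 extended below −1, a 2-fold difference, and those of the other genes did not pass it in either direction.

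Efna2, an A-class ephrin (ENSMUSG00000003070; chromosome 10, 80179482 to 80190010), had the smallest unadjusted p. It stood at 2.77, 2.89, 2.99, 2.81 and 2.75 CPM in PBS and 2.31, 2.56, 2.3, 2.4 and 1.84 CPM in rHCI hearts, and 1.76, 2.06, 2.11, 1.9 and 2.27 CPM in sham hearts. No rHCI heart reached the PBS range. Groups without overlap were found for this 1 guidance gene and for 0.531% of all genes. The log2 fold change was −0.31 ± 0.10 (95% interval −0.53 to −0.09, unadjusted p = 0.00916, adjusted p = 0.871). Efna4, with the values given above, had −0.48 ± 0.16 (−0.84 to −0.12), and the PBS and rHCI hearts overlapped by a little.

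Efna5, another A-class ephrin (ENSMUSG00000048915; chromosome 17, 62604184 to 62881317), was at 15.3, 15.7, 15.1, 16.3 and 13.9 CPM in sham, 21.5, 20.4, 22.6, 21.9 and 21 CPM in PBS and 19.5, 20.1, 18.3, 21.2 and 18.1 CPM in rHCI hearts. Its log2 fold change of rHCI over PBS was −0.14 ± 0.05 (−0.26 to −0.02). Robo1 had −0.36 ± 0.15 (−0.70 to −0.02), with rHCI 13 far below the other rHCI hearts and rHCI 3 within the PBS range. None of these 4 passed the adjustment over all genes (adjusted p = 0.871 for each). Of the 85 partner genes tested, 0 passed and 2 had an unadjusted p under 0.05, and Cd72 had the smallest unadjusted p (0.00978; log2 fold change −0.48 ± 0.15).

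**Figure D4:**
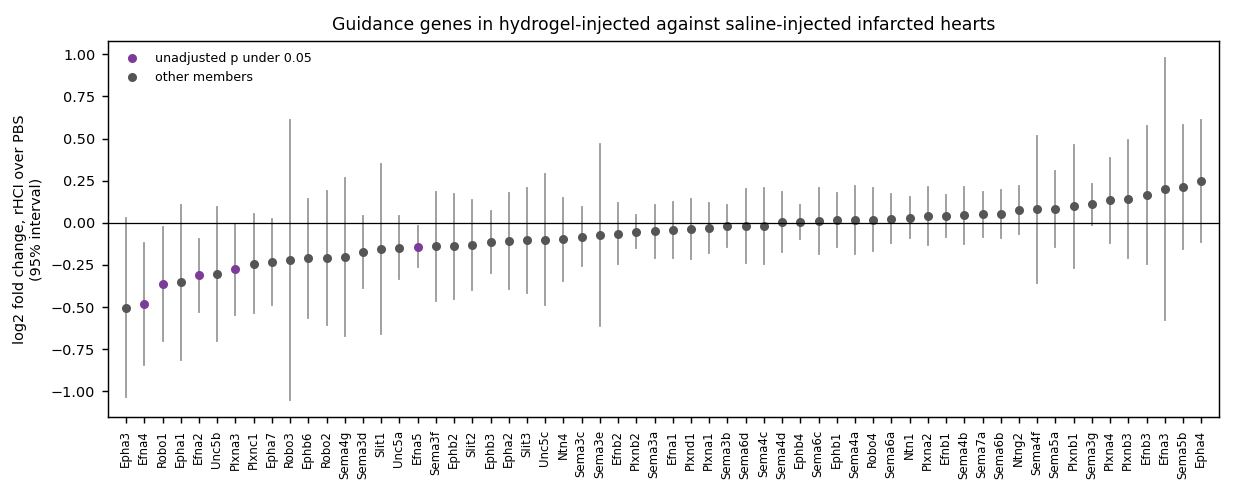
Log2 fold change of rHCI over PBS (vertical axis; points, with 95% intervals from the edgeR fit as bars) for the 60 guidance genes tested, in order of size, 5 libraries per group. The 5 purple genes had an unadjusted p under 0.05 and all lie below 0, and no gene passed after adjustment over all genes.

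The rHCI hearts were also set against the sham hearts, which are the same libraries that served for PBS, so both comparisons share their controls. Here 33 of 58 guidance genes tested rose and 10 fell, beside 34.1% and 29.7% of all 16076 genes tested (63.9% together). With scaling by the library total 43 rose and 7 fell. That scaling moved the median of all genes to 0.22, and 63.1% of all genes passed with it in either direction. The groups did not overlap for 38 guidance genes and 49.4% of all genes. In rHCI and PBS hearts respectively, the log2 fold changes against sham were 2.72 and 3.21 for Epha3, 2.88 and 3.02 for Ephb2, 1.79 and 2.09 for Unc5b, and −1.35 and −1.60 for Epha4. They were 1.19 and 1.16 for Sema6a and −0.52 and −0.56 for Ntn1.

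With TMM scaling the calls against sham differed for 6 genes. Efna2, Ephb3, Plxnb3, Robo2 and Slit1 passed in PBS hearts and not in rHCI hearts, and Efna1 (−0.17 ± 0.06) passed in rHCI hearts and not in PBS hearts. The direct comparison of rHCI with PBS passed for none of them. With the library total none of the 6 calls differed, but those of Robo4 and Sema4c did. Efna2, Ephb3, Robo2 and Slit1 then passed as higher against sham in both groups, Plxnb3 and Efna1 passed in neither, and Efna1 in rHCI against sham turned to 0.058 (adjusted p = 0.511). With that scaling Robo4 and Sema4c passed as higher in PBS hearts (adjusted p = 0.0197 and 0.00107) and not in rHCI hearts (0.109 and 0.0595). Robo2 had 0.43 ± 0.19 in rHCI against sham (adjusted p = 0.0663), and it passed without rHCI 13 (0.55, adjusted p = 0.00842). Ntn4 rose in rHCI hearts (0.35 ± 0.10, adjusted p = 0.0112), with an adjusted p of 0.0517 in the libraries of the shared run label alone. Of the 85 partner genes tested 49 rose and 12 fell, beside 34.1% and 29.7% of all genes tested. With the library total 66 rose and 5 fell, while 63.1% of all genes passed in either direction.

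Guidance gene levels were also set against marker scores of the infarcted ventricles. Over the 10 infarcted hearts, log2 CPM of each of 16383 genes was correlated with a cardiomyocyte score and a fibroblast score, the mean log2 CPM of 7 markers each. This relation was examined after the data were seen. PBS and rHCI hearts were pooled and permuted together, without regard to group. With the cardiomyocyte score, 26 of 60 guidance genes passed an adjusted permutation p under 0.05 over all genes, 5 with a positive and 21 with a negative correlation, as did 37.8% of all genes (19.8% positive, 18% negative). With the fibroblast score 18 passed, 16 positive and 2 negative, as did 29.1% of all genes (13.5% positive, 15.6% negative). By rank correlation 18 guidance genes passed with the cardiomyocyte score and 8 with the fibroblast score, as did 32.4% and 19% of all genes, so by rank the shares of guidance genes lay below those of all genes.

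Slit2 was lower in hearts with a higher cardiomyocyte score (Pearson r = −0.968, permutation p = 1e-05, the smallest that 100000 permutations can give, adjusted p = 0.000273; Spearman coefficient = −0.964, permutation p = 5e-05; n = 10). Unc5b had r = −0.949 (permutation p = 1e-05, adjusted p = 0.000273) and a Spearman coefficient of −0.939 (permutation p = 0.0002). Efnb3 ran the other way, with r = 0.948 (permutation p = 5e-05, adjusted p = 0.00073) and a Spearman coefficient of 0.964 (permutation p = 1e-05). Without PBS 12 and rHCI 13, the hearts farthest from the median score, r was −0.96, −0.944 and 0.94 for the 3 genes. Within the 8 hearts of the shared run label it was −0.98, −0.96 and 0.968. In PBS hearts alone r was −0.958, −0.956 and 0.941, and in rHCI hearts alone −0.971, −0.959 and 0.997.

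Plxnb1 (r = 0.902, Spearman coefficient = 0.927; permutation p = 0.00043 and 0.00033) and Epha4 (r = 0.809, Spearman coefficient = 0.83; permutation p = 0.00595 and 0.00474) were higher in hearts with a higher cardiomyocyte score, as were Plxnb3 and Ntn1. With the fibroblast score, Ephb6 had r = 0.965 (permutation p = 1e-05, adjusted p = 0.00278) and a Spearman coefficient of 0.952 (permutation p = 8e-05). All genes that passed kept their sign without the 2 hearts farthest from the median of the score (rHCI 11 and rHCI 13 for the fibroblast score) and within the shared run label. Some rested on those hearts, however. Without rHCI 11 and rHCI 13 the fibroblast r was 0.266 for Sema3d, 0.356 for Sema4g and 0.37 for Plxna1. For these 3 genes it was 0.0148, 0.357 and 0.224 in PBS hearts alone, and 0.927, 0.921 and 0.971 in rHCI hearts alone. Without PBS 12 and rHCI 13 the cardiomyocyte r was −0.371 for Unc5c and −0.229 for Plxnd1. Robo4 showed no such relation that passed (r = −0.393, Spearman coefficient = −0.418; permutation p = 0.258 and 0.233).

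**Figure D5:**
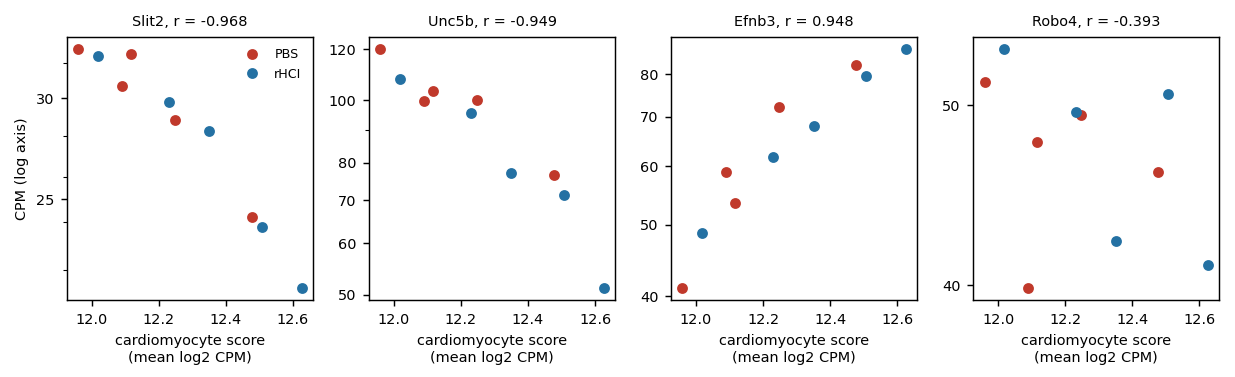
Level of Slit2, Unc5b, Efnb3 and Robo4 in CPM (vertical axes, logarithmic) against the cardiomyocyte score (horizontal axes, mean log2 CPM of 7 markers) in the 10 infarcted hearts (red PBS, blue rHCI). Slit2 and Unc5b are lower and Efnb3 higher in hearts with a higher score, with r of −0.968, −0.949 and 0.948, and PBS and rHCI hearts are interspersed.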

How the data were processed

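Left ventricle RNA was sequenced from stranded mRNA libraries, per the labels' protocols. The authors deposited raw read counts per gene in a single table that pairs Ensembl identifiers with symbols, and 0 of its columns had no sample. Trimmomatic, STAR, Cufflinks and edgeR and the builds GRCm38 and mm10 are named in the submitters' processing notes. Their roles and versions, the counter, its strand setting and its annotation were not given in the sources used here.

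Groups came from the sample titles. The series' design text calls the replicates biological, and the p-values of the group comparisons set a difference against the spread between them. A run label in the descriptions was shared by 12 libraries, while PBS 6 had another, and rHCI 1 and Sham 19 a further one. Every comparison used the 10 libraries of its groups in edgeR 4.0.16 under R 4.3.3 (TMM, filterByExpr, glmQLFit and glmQLFTest, two-sided, Benjamini-Hochberg over all genes tested, threshold 0.05). Standard errors are the log2 fold change divided by the square root of F, and 95% intervals use the fit's degrees of freedom. CPM and RPKM were computed from the deposited counts with TMM factors of all 15 libraries, RPKM with the summed exon length in GENCODE M21 on GRCm38, which held 46488 of the identifiers. Correlations used log2(CPM + 0.1) and 100000 permutations. The fitting script was tested on simulated data.

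The guidance genes, partner list and marker lists were chosen with earlier results of these data known. Genes named with every library's value were, per family, up to 3 with the largest change in PBS against sham among those that passed, had at least 1 CPM and no overlap, and the 1 with the highest sham level per length, and further the 4 with the smallest p in rHCI against PBS. Of the partners, 6 with the largest change and Nrp1, Nrp2, Dcc and Neo1 are given by range, mean or fold change. Alternatives were RLE factors, the library total, DESeq2 1.42.0, 2 other count filters, a joint fit of all libraries, the run label as covariate or restriction, a 1.2-fold minimum, each replicate left out and, added after seeing the data, rank correlation. Of the marker symbols, Ccl21a matched more than 1 gene and was left out.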

Additional observations from a re-analysis of the deposited data

Results flagged for a closer look

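In 5 of 111 groups of 5 libraries (4.5%, where chance gives about 5%) 1 library stood apart from the other 4. Among guidance genes these were Sema5b, at 2.28 CPM in Sham 19 against 1.2 to 1.46 CPM in the other sham hearts, and Ephb2, at 5.41 CPM in PBS 14 against 7.13 to 7.6 CPM in the other PBS hearts. Among partners, Mmp14 was at 136 CPM in PBS 14 against 207 to 219 CPM, Sdc1 at 8.33 CPM in Sham 18 against 7.06 to 7.42 CPM, and Nrp2 at 50.2 CPM in Sham 20 against 63.3 to 67.3 CPM.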

How the results depend on the processing

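Leaving out each replicate in turn gave 46 to 49 guidance genes and 62 to 65 partner genes in PBS against sham (47 and 64 with all libraries). Of all genes, 68.1% to 70.7% passed in these refits. In rHCI against sham there were 40 to 44 and 57 to 63 (43 and 61 with all libraries), beside 59.5% to 65.3% of all genes. In rHCI against PBS there were 0 to 0 of either, while 3 of all 16537 genes tested passed without rHCI 13. Of the refits of single named genes, 658 of 665 kept direction and call in PBS against sham, 647 of 664 in rHCI against sham and 76 of 76 in rHCI against PBS. With the library total the log2 fold change turned positive for Robo4 (0.21 in PBS and 0.193 in rHCI against sham) and Neo1 (0.096 and 0.024). It also turned positive for Efna1 (0.14 and 0.058), Epha2 (0.20 and 0.046) and Ephb1 (0.20 and 0.17), and of these Efna1 had been called lower in rHCI against sham. With replicates left out, Robo4 in rHCI against sham ran from −0.083 to 0.010 and was above 0 without Sham 18 (0.010), without rHCI 1 (0.0055) and without rHCI 13 (0.0082). A 1.2-fold minimum left 39 partner genes in rHCI against sham, by its own construction a stricter test, beside 38.3% of all genes. Rank correlation left 8 guidance genes with the fibroblast score, beside 19% of all genes, and the cause was not tested. No paired analysis was possible because replicate numbers are not shared between groups. Low counts limit, among others, Efna4, Sema3e, Sema4f, Sema4g and Slit1, Epha1 and Epha3 in sham hearts, and the 9 untested genes.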
